A study of Mus musculus with 4 samples.

Results

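The genes described here are 10 genes of the neuronal microtubule cytoskeleton: Tubb3, Stmn1, Stmn2, Stmn3, Stmn4, Dcx, Dclk1, Map2, Map1b and Mapt. They were taken by symbol from the gene column of the count matrices, all 10 were present, and they stood among 32286 features. They were followed in 4 single-cell libraries of dissociated mouse tumour tissue that the submitters label MB, captured with the 10x Genomics Chromium 3' kit. The YSG libraries came from fYap1;fSMO-M2;hGFAPcre animals, which the series describes as rescued and taken at end point, and the SG libraries from fSMO-M2;hGFAPcre animals. Each genotype gave 1 male and 1 female library. Both genotypes carry SMO-M2, a constitutively active Smoothened that drives Hedgehog signalling, and a Cre recombinase under the human GFAP promoter, which is active in neural stem and progenitor cells. The added fYap1 allele concerns Yap1, a transcriptional co-activator of the Hippo pathway. The sources used here do not give animal ages, numbers per library or fYap1 zygosity.

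Microtubules are hollow polymers of alpha and beta tubulin. As a granule neuron leaves the cell cycle its spindle microtubules give way to long, stabilised arrays in the leading process, axon and dendrites, and the proteins that bind tubulin change with it. In the developing cerebellum this switch is a usual sign that granule neuron progenitors, the cells from which Hedgehog-driven medulloblastoma arises, have begun to differentiate. Tubb3 encodes the neuronal class III beta tubulin. The 4 stathmins bind free tubulin dimers and promote microtubule disassembly: Stmn1 is cytosolic and also abundant in dividing cells, while Stmn2, Stmn3 and Stmn4 are membrane-anchored and largely neuronal. Dcx (doublecortin) and its relative Dclk1, which adds a kinase domain, bind and stabilise microtubules in migrating neurons. Map2, Map1b and Mapt (tau) coat microtubules, Map2 in dendrites, Mapt in axons and Map1b in growing axons.

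In GENCODE M21 coordinates on mm10, the tubulin gene Tubb3 lies at chr8:123411424-123422015 on the plus strand. Stmn1 lies at chr4:134468320-134473843 (plus), Stmn2 at chr3:8509360-8561606 (plus), Stmn3 at chr2:181306459-181314500 (minus) and Stmn4 at chr14:66344296-66361680 (plus). Dcx lies at chrX:143855842-143933311 (minus) and Dclk1 at chr3:55242364-55539068 (plus). Map2 lies at chr1:66175273-66442583 (plus), Map1b at chr13:99421446-99516540 (minus) and Mapt at chr11:104231390-104332090 (plus). Of 15 annotated genes that overlap a member, 4 were also in the count matrix. These were the opposite-strand genes Gm10558 in Map2, Gm42609 and Gm21954 in Dclk1 and Gm11659 in Mapt, with at most 204 UMIs (unique molecular identifiers, each counting 1 captured transcript) in a library. The Tubb3 span is shared with the read-through gene Gm20388, which was not in the count matrix.

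RefSeq promoter sequences on GRCm38.p6 matched 6 of the 10 members. The 250 bases upstream of the start (for Dclk1, the first of its RefSeq starts) are shown for 3 of them, chosen because they lie wholly outside the annotated span of the gene. They are given 5′ to 3′ in the direction of the gene, with capitals for matches to CAGATG or CAGCTG (E-boxes, the first of the kind read by Atoh1 and Neurod factors) and GGAATG (the TEAD motif). These motifs, TATAAA and the GLI motif GACCACCCA were searched on both strands, the last ones without capitals, and no matches overlapped.
Stmn3, chr2:181314501-181314750, minus strand: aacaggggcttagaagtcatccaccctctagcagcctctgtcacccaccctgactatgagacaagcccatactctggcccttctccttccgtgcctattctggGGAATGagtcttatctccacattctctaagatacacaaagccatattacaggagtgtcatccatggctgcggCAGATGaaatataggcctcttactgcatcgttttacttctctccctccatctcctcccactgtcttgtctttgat
Map1b, chr13:99516603-99516852, minus strand: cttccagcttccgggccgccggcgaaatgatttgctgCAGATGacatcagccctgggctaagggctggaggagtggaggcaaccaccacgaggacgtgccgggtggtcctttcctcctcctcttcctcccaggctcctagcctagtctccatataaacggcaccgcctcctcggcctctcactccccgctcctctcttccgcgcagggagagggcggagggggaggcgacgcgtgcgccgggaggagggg
Dclk1, chr3:55242114-55242363, plus strand: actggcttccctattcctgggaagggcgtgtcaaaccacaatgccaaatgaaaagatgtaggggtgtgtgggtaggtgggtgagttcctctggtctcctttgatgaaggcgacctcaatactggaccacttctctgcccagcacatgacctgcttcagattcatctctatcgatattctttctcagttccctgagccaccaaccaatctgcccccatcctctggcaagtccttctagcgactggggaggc
The Stmn3 window held 1 CAGATG 75 bases before the start and 1 GGAATG 147 bases before it. The Map1b window held 1 CAGATG 213 bases before the start and 1 TATAAA, and the Dclk1 window held no match to these motifs. Among 32851 promoter windows of the same length, 14.4% held CAGATG, 13.0% CAGCTG, 12.6% GGAATG, 12.4% TATAAA and 0.225% GACCACCCA. The windows of Tubb3, Map2 and Dcx, which are not shown, held no E-box, TEAD or GLI match, although those of Dcx held TATAAA. These 3 genes were higher in early postmitotic than in cycling cells in all 4 libraries, as were Stmn3 and Map1b. Dclk1, whose window also held no such match, was lower in early cells in all 4 libraries. The matches are a description of the letters only.

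Kept barcodes had at least 500 UMIs and 300 genes, and no more than 20% of their UMIs came from mitochondrial genes. This left 7882 cells for YSG males and 8419 for SG males, and 7193 for YSG females and 7656 for SG females, with 58308739 to 86810253 UMIs and a median of 5872 to 7420 UMIs per cell. Pairs of libraries shared 9 to 21 barcodes. Yap1 had 10 UMIs in the YSG male library against 266 in the SG male library, and 3 UMIs in the YSG female library against 374 in the SG female library, which goes with the labels, although a 3' count does not show which exons are missing. All 6 granule lineage markers (Atoh1, Gli1, Neurod1, Pax6, Zic1, Barhl1) were detected in every library, so the tissue carried the transcripts of cerebellar granule cells. Levels are in CPM (UMIs of the gene over all UMIs of the same cells, on the usual CPM scale). The markers summed to 1469 CPM in YSG males against 1137 CPM in SG males, and to 1593 CPM in YSG females against 1113 CPM in SG females. Their sum was thus higher in YSG in both sexes. Each group is 1 library, so there is neither a replicate nor a test, and differences between animals, tissue pieces and capture runs cannot be told apart from genotype. Ranges in brackets are 95% intervals of counting error only. After a median over genes, the brackets hold the medians of the single-gene lower and upper bounds. They are not an interval of the median itself. A gene is called different when its ratio is 2-fold or more.

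Over all kept cells, each of the 10 genes had a higher level in YSG than in SG tumour cells, in males and in females. Together they took 0.546% of all UMIs in the YSG male library against 0.365% in the SG male library, and 0.579% in the YSG female library against 0.36% in the SG female library. Their median log2 ratio of YSG over SG was 0.51 (0.485 to 0.54) for males and 0.70 (0.66 to 0.745) for females, where the median over all genes was -0.00814 and 0.00112. For all 10, both YSG libraries lay above both SG libraries, which was so for 28.3% of 10469 genes. The same was true of all 10 in cycling cells, described below, against 27.9% of all genes there. Only Stmn4 in males (1 of 10) and Stmn2 in females (1 of 10) passed 2-fold, both on the higher side, where 2.07% of 10180 genes in males and 3.7% of 10379 genes in females did so. On the lower side it was 0 of 10, where 2.72% of all genes in males and 2.83% in females passed. In such sums, fewer cells of a kind and less RNA per cell cannot be told apart.

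**Figure D1:**
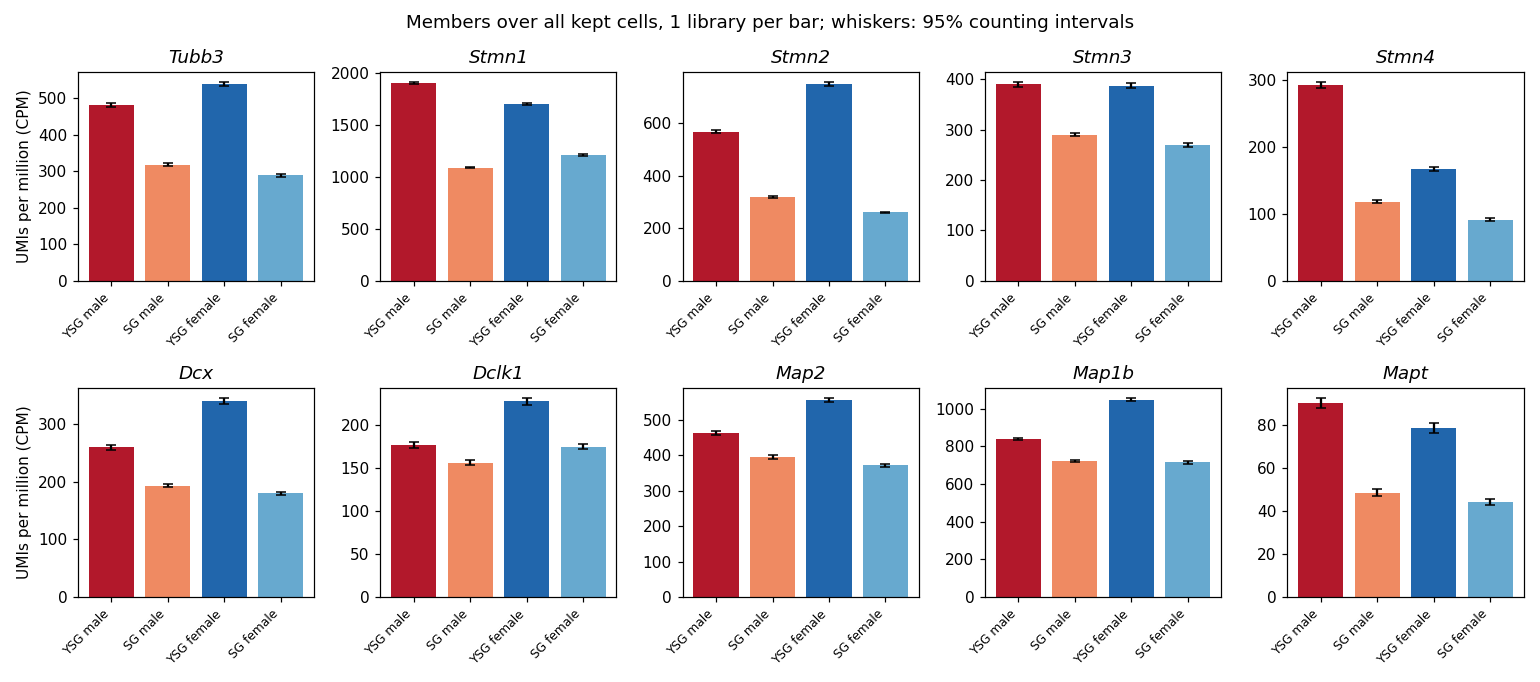
Level of each gene over all kept cells in CPM, 1 bar per library, with 95% counting intervals as whiskers; in each panel the YSG male bar stands left of the SG male bar and the YSG female bar left of the SG female bar. For all 10 genes both YSG bars exceed both SG bars, by the least for Dclk1 (177 CPM in YSG males against 175 CPM in SG females).

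Tubb3 had 480 CPM in the YSG male library against 318 CPM in the SG male library, and 538 CPM in the YSG female library against 288 CPM in the SG female library. The YSG level was 1.51-fold (1.49 to 1.54) the SG level in males and 1.87-fold (1.84 to 1.9) in females. The order of the 4 libraries was therefore YSG female, YSG male, SG male, SG female, and no neighbours in it had overlapping counting intervals.

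Among the stathmins, the sexes did not rank the same way. Stmn1 had 1900 CPM in YSG males against 1087 CPM in SG males, and 1699 CPM in YSG females against 1208 CPM in SG females, ratios of 1.75 (1.73 to 1.76) and 1.41 (1.39 to 1.42). Stmn2 had 568 CPM in YSG males against 319 CPM in SG males, and 750 CPM in YSG females against 260 CPM in SG females, ratios of 1.78 (1.75 to 1.81) and 2.89 (2.84 to 2.93). The genotype ratio was larger in males for Stmn1 and larger in females for Stmn2, and the difference between the sexes was not tested. Stmn4 had 293 CPM in YSG males against 118 CPM in SG males, and 167 CPM in YSG females against 91.2 CPM in SG females, ratios of 2.48 (2.42 to 2.55) and 1.83 (1.78 to 1.89). Stmn3 differed least among the stathmins in males, with 390 CPM in YSG males against 290 CPM in SG males, and had 387 CPM in YSG females against 270 CPM in SG females. Within YSG, the male and female libraries differed by less than counting error for Stmn3 (1.01-fold, 0.989 to 1.03), while Stmn4 was 1.76-fold (1.71 to 1.8) as high in the male library and Stmn2 0.757-fold (0.747 to 0.768).

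Of the doublecortin pair, Dcx showed the larger genotype ratio. Dcx had 260 CPM in YSG males against 193 CPM in SG males, and 341 CPM in YSG females against 180 CPM in SG females, ratios of 1.34 (1.31 to 1.37) and 1.89 (1.85 to 1.93). Dclk1 had 177 CPM in YSG males against 156 CPM in SG males, and 227 CPM in YSG females against 175 CPM in SG females, ratios of 1.13 (1.1 to 1.16) and 1.3 (1.27 to 1.33), the smallest of the 10 in each sex. The counting intervals of its YSG male and SG female levels overlapped.

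The 3 microtubule coat proteins were all higher in YSG. Map2 had 462 CPM in YSG males against 395 CPM in SG males, and 555 CPM in YSG females against 372 CPM in SG females. Map1b had 839 CPM in YSG males against 723 CPM in SG males, and 1048 CPM in YSG females against 714 CPM in SG females. Their ratios were close to each other, 1.17 and 1.16 in males and 1.49 and 1.47 in females. Mapt had 90.2 CPM in YSG males against 48.5 CPM in SG males, and 78.7 CPM in YSG females against 44.4 CPM in SG females, ratios of 1.86 (1.78 to 1.94) and 1.77 (1.7 to 1.85). Unlike Map2 and Map1b, Mapt was higher in the male than in the female YSG library, at 1.15-fold (1.1 to 1.19).

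To separate the make-up of a library from the level within its cells, cells were gated on 3 pairs of genes that are no members. Cycling cells held 4 or more UMIs of the mitotic genes Mki67 and Top2a. Early cells held 2 or more UMIs of Cntn2 and Robo3, an adhesion molecule and a guidance receptor of newly postmitotic granule neurons, and maturing cells held 2 or more UMIs of Grin2b and Kcna1, a glutamate receptor subunit and a potassium channel subunit. A cell passing exactly 1 gate was given that state. Cells passing several gates (9.46% to 12.1% of a library) or none (42.0% to 47.1%) formed classes of their own.

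The YSG libraries held fewer cells passing the cycling gate and more passing the early or maturing gate. Cycling cells made up 21.8% of the YSG male library against 26.9% of the SG male library, and 18.5% of the YSG female library against 29.1% of the SG female library. Early cells made up 20.5% of the YSG male library against 18.03% of the SG male library, and 23.7% of the YSG female library against 16.4% of the SG female library. Maturing cells were scarce, 88 (1.12%) in YSG males against 35 (0.416%) in SG males, and 162 (2.25%) in YSG females against 34 (0.444%) in SG females. The YSG over SG ratio of shares was 0.812 (0.762 to 0.865) for males and 0.637 (0.595 to 0.682) for females for cycling cells. It was 1.14 (1.06 to 1.22) and 1.45 (1.35 to 1.56) for early cells. For maturing cells it was 2.69 (1.8 to 4.1) for males and 5.07 (3.49 to 7.57) for females.

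Several values stand beside these shares. Among cells carrying leukocyte markers, which should pass none of these gates other than the cycling gate, 7.69% of 26 passed the early gate in YSG males against 12.5% of 16 in SG males, and 12.2% of 41 in YSG females against 0% of 10 in SG females, at median depths of 1575 to 3672 UMIs. The maturing gate was passed by 0% of these cells in YSG males against 6.25% in SG males, and by 7.32% in YSG females against 0% in SG females. Counted in the same way, whether or not another gate was passed too, granule or unassigned cells passed the early gate at 26.9% in YSG males against 24.9% in SG males, and at 34.6% in YSG females against 24.5% in SG females. They passed the maturing gate at 3.73% in YSG males against 2.82% in SG males, and at 10.1% in YSG females against 3.25% in SG females, at median depths of 5377 to 6588 UMIs. The few leukocyte-marked cells leave their own shares uncertain, and the maturing share of SG males lay below theirs. The median depth of early cells was 5181 UMIs in YSG males against 5210 in SG males, and 5799 in YSG females against 6022 in SG females. Robo3 itself had 84 UMIs in the YSG male library against 959 in the SG male library, and 676 in the YSG female library against 1398 in the SG female library, so the early state rested mostly on Cntn2, which had 10755 to 12887 UMIs per library. With Robo3 and Grin2b alone as gate genes the early share ratio was below 1 in both sexes, 0.073 in males and 0.811 in females.

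**Figure D2:**
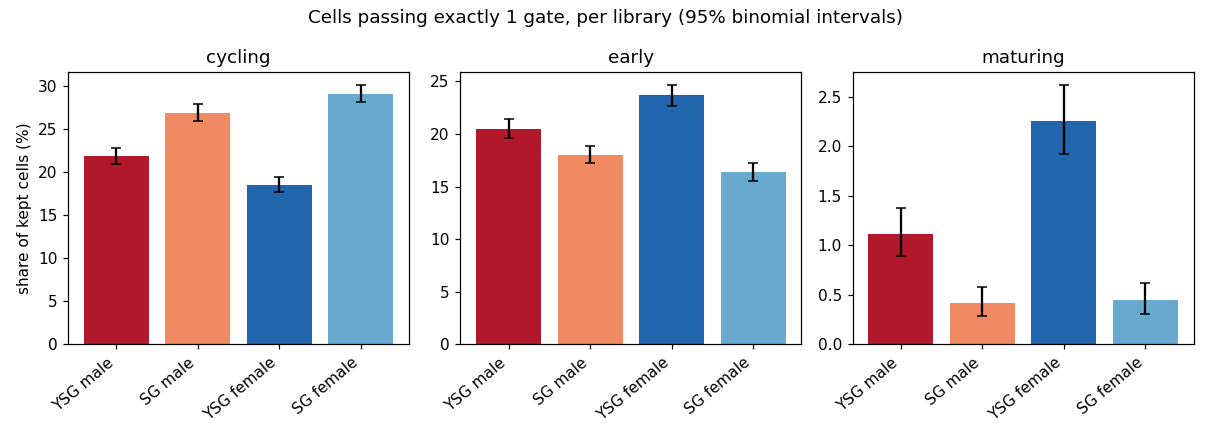
Share of kept cells (%) passing exactly 1 gate, 1 bar per library with 95% binomial intervals, in panels for cycling, early and maturing cells. Cycling bars are lower in YSG than in SG of the same sex (18.5% against 29.1% in females), and early and maturing bars are higher.

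Along the states, most of the genes were higher in early than in cycling cells, and the step was smaller in YSG. Early cells exceeded cycling cells for 8, 8, 8 and 9 of the 10 genes in the YSG male, SG male, YSG female and SG female libraries. The share of all genes with this direction alone was not computed, so these counts have no background beside them. The step reached 2-fold for 5 genes in YSG males against 7 in SG males, and for 5 in YSG females against 8 in SG females. The share of all genes that did so was 7.31% in YSG males, 9.81% in SG males, 9.91% in YSG females and 9.99% in SG females.

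Stmn2 showed the widest step between these states. It had 329 CPM in cycling and 966 CPM in early cells of YSG males, and 120 CPM in cycling and 824 CPM in early cells of SG males. In females it had 354 CPM in cycling and 1269 CPM in early cells of YSG, and 83.7 CPM in cycling and 743 CPM in early cells of SG. The early level was thus 2.93-fold the cycling level in YSG males against 6.88-fold in SG males, and 3.58-fold in YSG females against 8.87-fold in SG females. Tubb3 behaved alike, with steps of 2.92-fold in YSG males against 5.5-fold in SG males, and 3.52-fold in YSG females against 6.28-fold in SG females. For both genes the level in cycling cells differed more between genotypes than the level in early cells. The cycling levels of Tubb3, Dcx and Mapt did not exceed those of cells with leukocyte, endothelial or fibroblast markers (below). The part of such a shared level in the size of the steps was not tested.

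Stmn4 differed most in its step, 1.07-fold in YSG males against 3.73-fold in SG males, and 1.74-fold in YSG females against 5.05-fold in SG females. Dcx, a marker of immature neurons, was 2.92-fold as high in early as in cycling cells in YSG males against 4.5-fold in SG males, and 3.26-fold in YSG females against 5.04-fold in SG females. Map2 (2.61-fold to 3.53-fold), Mapt (2.03-fold to 3.43-fold), Map1b (1.67-fold to 2.16-fold) and Stmn3 (1.53-fold to 2.16-fold) were higher in early cells in every library as well.

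Stmn1 and Dclk1 did not follow this order. Stmn1 had about as much in early as in cycling cells in SG, 0.99-fold in males and 1.02-fold in females, and less in YSG, 0.81-fold in males and 0.86-fold in females. Dclk1 was lower in early than in cycling cells throughout, 0.68-fold in YSG males against 0.67-fold in SG males, and 0.87-fold in YSG females against 0.65-fold in SG females. Across the 12 combinations of library and state, the log2 level of Stmn1 had a Pearson r between -0.22 and 0.22 with each of the other members, whereas Tubb3 and Stmn3 had an r of 0.99 and Dcx and Map2 an r of 0.99. These values describe points that share libraries, depth and gates, and no p is given.

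**Figure D3:**
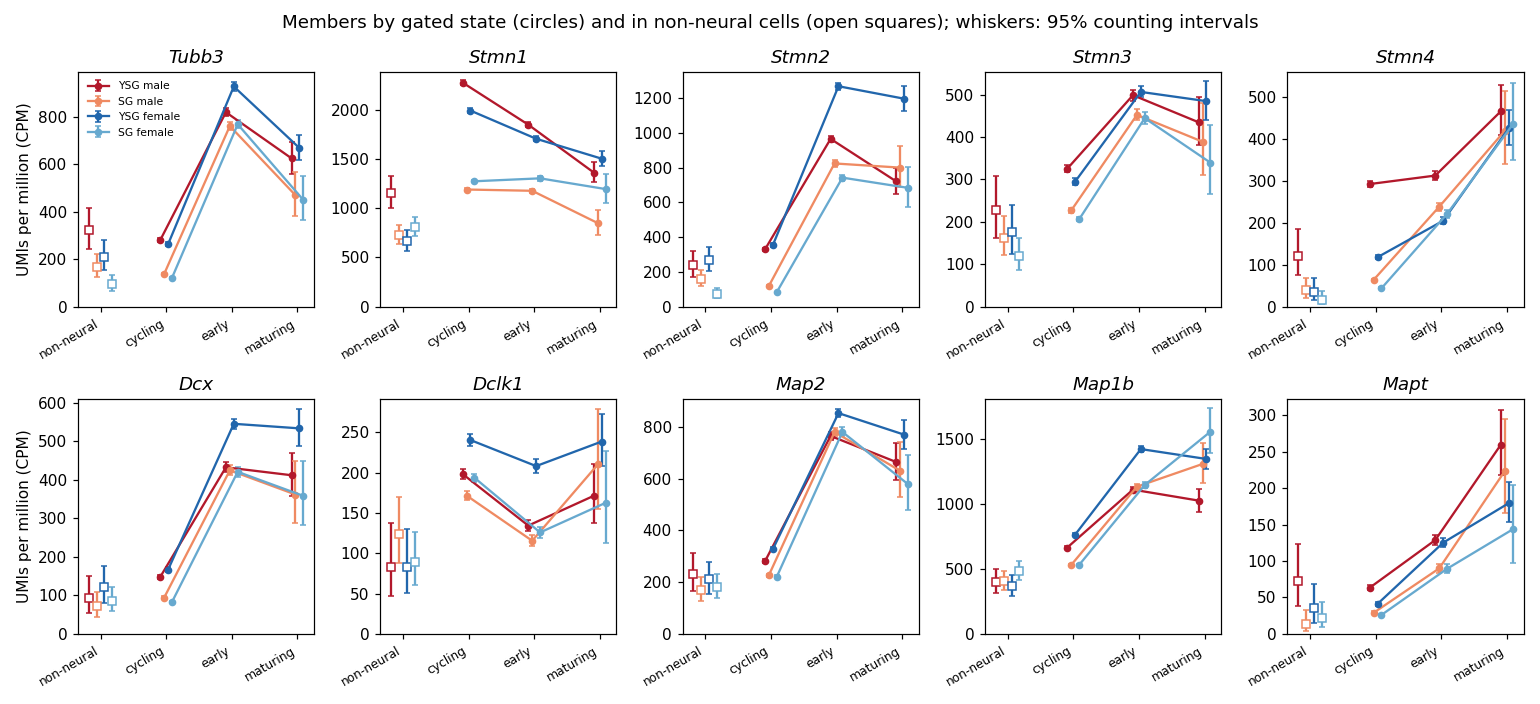
Level of each gene in CPM in cycling, early and maturing cells (circles joined by library) and in cells with leukocyte, endothelial or fibroblast markers (open squares, non-neural), with 95% counting intervals. The YSG cycling points of Tubb3 and Stmn2 lie at 0.874-fold to 1.38-fold of the non-neural cells of the same library, and those of Stmn1 at 1.97-fold in males and 2.99-fold in females.

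Within cycling cells, all 10 genes were again higher in YSG in both sexes, with a median log2 ratio of 0.79 (0.742 to 0.842) for males and 0.65 (0.57 to 0.736) for females. The summed granule lineage markers were higher there too. They stood at 1269 CPM in YSG males against 882 CPM in SG males, and at 1223 CPM in YSG females against 863 CPM in SG females. Tubb3, Stmn2, Stmn4 and Mapt passed 2-fold in males (4 of 10), where 2.95% of all genes did so. Tubb3, Stmn2, Stmn4 and Dcx passed it in females (4 of 10), where 3.12% did so. On the lower side it was 0 of 10 in both sexes, where 3.19% of all genes in males and 3.37% in females passed. Stmn4 had 293 CPM in YSG males against 64.0 CPM in SG males, and 118 CPM in YSG females against 43.9 CPM in SG females, ratios of 4.57 (4.33 to 4.83) and 2.69 (2.51 to 2.88). The ratio for Stmn2 was 2.75 (2.64 to 2.87) for males and 4.23 (4.04 to 4.43) for females, and for Tubb3 2.03 (1.94 to 2.12) and 2.16 (2.06 to 2.25). Stmn1 had 2278 CPM in YSG males against 1191 CPM in SG males, and 1993 CPM in YSG females against 1275 CPM in SG females, ratios of 1.91 (1.88 to 1.94) and 1.56 (1.54 to 1.59).

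In droplet libraries, free RNA from lysed cells gives UMIs in cells that do not express a gene, so the same genes were read in cells with leukocyte, endothelial or fibroblast markers. There were 30 such cells in YSG males and 37 in SG males, and 47 in YSG females and 38 in SG females, at median depths of 4106 UMIs in YSG males against 6212 in SG males and 2996 in YSG females against 5131 in SG females. Tubb3 stood at 321 CPM there in YSG males against 169 CPM in SG males, and at 211 CPM in YSG females against 94.9 CPM in SG females. In none of the 4 libraries did the cycling cells exceed this level of Tubb3 by more than counting error, and the same held for Dcx and Mapt. The non-neural cells held few UMIs of Dcx (17 to 31 per library) and Mapt (4 to 13), and the intervals were wide. The cycling level of Dcx, for example, was 1.57-fold (0.981 to 2.71) the non-neural level in YSG males. The YSG over SG ratio of Tubb3 in the non-neural cells was itself 1.9-fold (1.28 to 2.82) for males and 2.22-fold (1.4 to 3.55) for females. In cycling cells it was 2.03-fold and 2.16-fold. For Mapt it was 5.54-fold (1.71 to 23.3) and 1.57-fold (0.514 to 4.81), beside 2.19-fold and 1.58-fold in cycling cells. For Dcx it was 1.32-fold (0.656 to 2.6) and 1.42-fold (0.821 to 2.45), beside 1.57-fold and 2.0-fold. At this depth the cycling level of these 3 genes cannot be told apart from that of cells with these markers. The part of free RNA in their genotype ratio was not tested. The non-neural cells were not kept separate from the cycling gate. Of the leukocyte-marked cells, 15.4% passed it in YSG males against 31.25% in SG males, and 0% in YSG females against 10% in SG females. No doublets were removed, and the part of doublets or mislabelled cells in the non-neural level was not tested.

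Stmn2 in cycling cells was barely above the non-neural level in YSG, 1.38-fold (1.03 to 1.91) for males and 1.32-fold (1.03 to 1.73) for females, and not above it in SG. The YSG over SG ratio of Stmn2 in the non-neural cells was itself 1.49-fold (0.969 to 2.3) for males and 3.69-fold (2.3 to 6.08) for females. Stmn1 was above the non-neural level in cycling cells of every library, 1.97-fold (1.72 to 2.26) in YSG males against 1.63-fold (1.43 to 1.86) in SG males, and 2.99-fold (2.55 to 3.53) in YSG females against 1.58-fold (1.4 to 1.77) in SG females. Stmn3 and Dclk1 were above it in all 4 libraries too. Stmn4 was above it in YSG males (2.4-fold, 1.58 to 3.84), YSG females (3.37-fold, 1.7 to 7.81) and SG females (2.62-fold, 1.2 to 7.16), but not in SG males. The YSG over SG ratio of Stmn4 in the non-neural cells was itself 3.12-fold (1.48 to 6.92) for males and 2.1-fold (0.638 to 7.33) for females, beside 4.57-fold and 2.69-fold in cycling cells. In all, the cycling level cleared the non-neural level for 6 of the 10 genes in YSG males against 5 in SG males, and for 7 in YSG females against 4 in SG females. The early level did so for 9 in YSG males against 9 in SG males, and for 10 in YSG females against 9 in SG females. Dclk1 was the exception in those 3 libraries. The share of all genes clearing the non-neural level was not computed. These counts also depend on how many non-neural UMIs each library held, so no genotype difference is read from them.

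Shares of cells were compared at equal depth. After thinning each cell to 2000 UMIs, Stmn2 was seen in 43.6% of cycling cells in YSG males against 18.9% in SG males, and in 44.3% in YSG females against 14.2% in SG females. Without thinning these shares were 80.4% in YSG males against 51.5% in SG males, and 83.1% in YSG females against 46.6% in SG females. The non-neural cells, thinned alike, showed Stmn2 in 25% (8.66 to 49.1) of 20 cells in YSG males against 32.1% of 28 in SG males, and in 32% (14.9 to 53.5) of 25 in YSG females against 6.67% of 30 in SG females. The cycling shares of Stmn2 in YSG lie inside the intervals of these few cells, and that in SG males lies below the non-neural share. Stmn1 was seen in 97.2% of thinned cycling cells in YSG males against 89.3% in SG males, and in 96.5% in YSG females against 90.1% in SG females, and in 40% to 53.6% of thinned non-neural cells. Thinning left out 25 cycling cells in YSG males and 31 in SG males, and 13 in YSG females and 32 in SG females, and of the non-neural cells 8 to 22 per library.

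Early cells differed less between genotypes than cycling cells. The median log2 ratio of YSG over SG was 0.18 (0.095 to 0.234) for males and 0.34 (0.297 to 0.383) for females, and 0 of the 10 genes passed 2-fold in either sex, where 1.85% of all genes in males and 2.93% in females did so on the higher side, and 1.82% and 2.22% on the lower. For 7 of the 10 genes both YSG libraries lay above both SG libraries, against 21.1% of all genes. The exceptions were Stmn4, Map2 and Map1b. Stmn1 had 1850 CPM in YSG males against 1178 CPM in SG males, and 1707 CPM in YSG females against 1305 CPM in SG females, ratios of 1.57 (1.54 to 1.61) and 1.31 (1.28 to 1.34). Mapt had 129 CPM in YSG males against 89.9 CPM in SG males, and 125 CPM in YSG females against 89.4 CPM in SG females, ratios of 1.43 (1.32 to 1.56) and 1.4 (1.29 to 1.52).

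Other early-state ratios were larger in females. Stmn2 in early cells was 1.71-fold (1.66 to 1.76) as high in YSG as in SG females, and 1.17-fold (1.14 to 1.21) in males. Dclk1 was 1.65-fold (1.54 to 1.77) as high in females and 1.16-fold (1.08 to 1.26) in males. Dcx was 1.3-fold (1.25 to 1.35) as high in females and 1.02-fold (0.977 to 1.06) in males, and Map1b was 1.24-fold (1.21 to 1.27) and 0.98-fold (0.955 to 1.01). For Stmn4 the directions were opposite. It had 313 CPM in YSG males against 239 CPM in SG males, a ratio of 1.31 (1.24 to 1.38), and 205 CPM in YSG females against 222 CPM in SG females, a ratio of 0.925 (0.873 to 0.981). Whether these differences between the sexes exceed those between single animals was not tested.

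**Figure D4:**
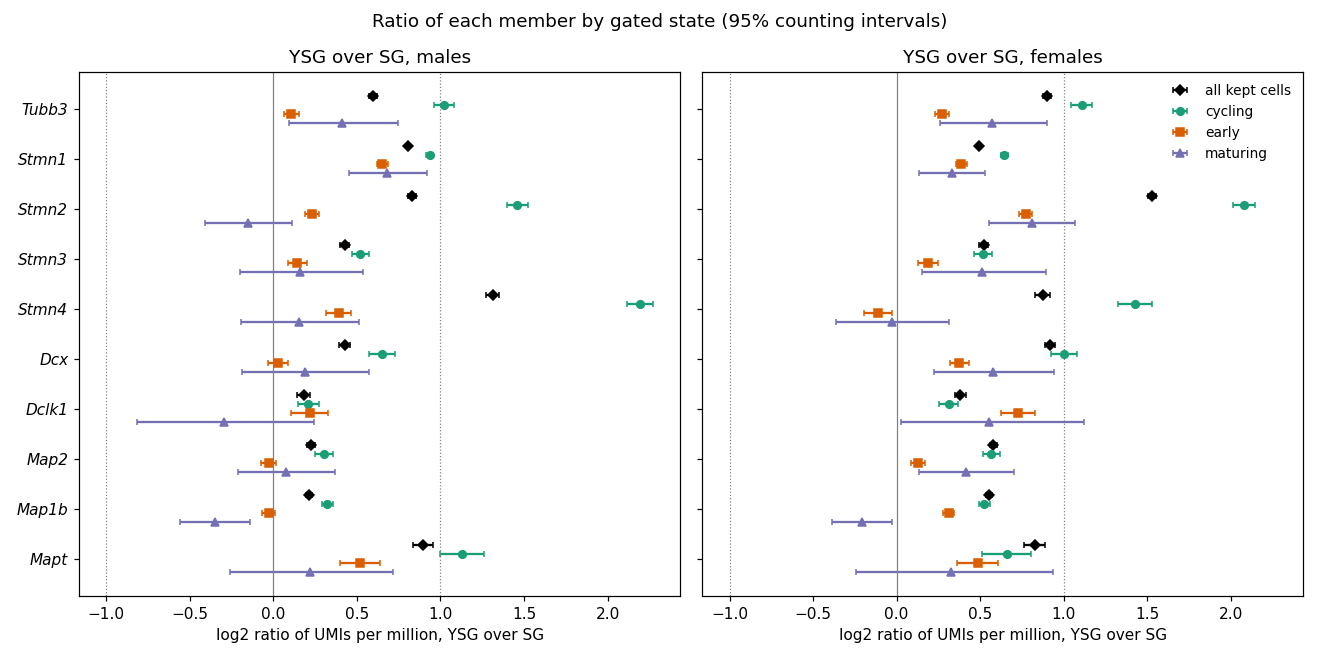
Log2 ratio of YSG over SG for each gene in males (left) and females (right), over all kept cells and within cycling, early and maturing cells, with 95% counting intervals; the dashed lines are 2-fold. Ratios in cycling cells are the highest for Stmn4 in males (4.57-fold) and Stmn2 in females (4.23-fold), and log2 ratios in early cells lie between -0.11 and 0.77.

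The maturing state rested on 34 to 162 cells, and 0 of the 10 genes passed 2-fold there in either sex, where 14.4% of all genes in males and 14.8% in females did so on the higher side, and 11.6% and 13.5% on the lower. Among genes at 50 CPM or more, a range that holds all 10 members here, the shares were 3.71% in males and 4.57% in females on the higher side. They were 3.91% and 6.84% on the lower. The median log2 ratio of the 10 genes was 0.16 (-0.205 to 0.522) for males and 0.46 (0.135 to 0.898) for females. Both YSG libraries lay above both SG libraries for 5 of the 10 genes (Tubb3, Stmn1, Stmn3, Dcx and Map2), against 20% of all genes. Map1b was the 1 gene with a lower level in YSG beyond counting error in both sexes, with 1028 CPM in YSG males against 1310 CPM in SG males, and 1348 CPM in YSG females against 1559 CPM in SG females. Its ratios were 0.785 (0.679 to 0.907) for males and 0.865 (0.765 to 0.98) for females. Stmn1 remained higher in YSG, at 1363 CPM in YSG males against 850 CPM in SG males, and 1504 CPM in YSG females against 1196 CPM in SG females.

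Markers of other cell types stood high in some of these maturing cells. The oligodendrocyte markers Mog, Mag, Mobp and Cldn11 summed to 222 CPM in maturing cells of YSG males and 246 CPM in SG males, and to 84.9 CPM in YSG females against 1009 CPM in SG females. They are part of a longer marker list, so these sums are a lower bound of the oligodendrocyte transcripts and no direction is read from the male values. In early cells the sum was 19.8 CPM in YSG males against 8.19 CPM in SG males, and 6.96 CPM in YSG females against 1.34 CPM in SG females. The 5 astroglial markers summed to 205 CPM in maturing cells of YSG males against 979 CPM in SG males, and to 184 CPM in YSG females against 177 CPM in SG females, beside 230 to 292 CPM in early cells. The 6 leukocyte markers summed to 3.76 CPM in maturing cells of YSG males against 0 CPM in SG males, and to 82.7 CPM in YSG females against 0 CPM in SG females, beside 0.413 to 19.6 CPM in early cells. The part of these cell types in the maturing levels was not tested. Without cells carrying markers outside the granule lineage the median log2 ratio was -0.0984 for males and 0.284 for females, so its direction in males did not hold.

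Only Stmn4 and Mapt were higher in each later state in all 4 libraries. Mapt reached 260 CPM in maturing cells of YSG males against 224 CPM in SG males, and 179 CPM in YSG females against 143 CPM in SG females. Stmn4 reached 467 CPM in maturing cells of YSG males against 420 CPM in SG males, and 427 CPM in YSG females against 435 CPM in SG females. Map1b joined them in both SG libraries, which makes 2 of 10 in YSG males against 3 in SG males, and 2 in YSG females against 3 in SG females. The share of all genes with this order was 29.6% in YSG males, 29.2% in SG males, 28.6% in YSG females and 27.1% in SG females. The count was thus near the background at these gates. Other gates gave up to 8 (below), with no share of all genes beside it. Cells with oligodendrocyte markers held 278 CPM of Mapt in YSG males against 107 CPM in SG males, and 291 CPM in YSG females against 97.3 CPM in SG females. Stmn4 had 354 CPM there in YSG males against 88.1 CPM in SG males, and 274 CPM in YSG females against 67.5 CPM in SG females. The part of such cells in the rise was not tested.

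At an equal mix of states in every library, the genes were still higher in YSG. When the levels of the 5 gate classes were weighted by the same mean shares of UMIs in every library, the median log2 ratio was 0.43 (0.406 to 0.458) for males and 0.63 (0.595 to 0.661) for females, beside 0.51 and 0.70 over all cells. All 10 genes had a ratio above 1 beyond counting error in both sexes at this fixed mix. The share of all genes that did so was not computed. Stmn4 had a log2 ratio of 1.24 in males and Stmn2 of 1.33 in females at the fixed mix, and Map2 in males had the lowest, 0.14. In ungated cells the median log2 ratio was 0.64 for males and 0.71 for females, and 2 of 10 genes passed 2-fold in each sex, where 2.44% of all genes in males and 3.51% in females did so. In cells of several gates the medians were 0.33 and 0.70, and 0 of 10 genes in males and 1 of 10 in females passed 2-fold, where 1.85% and 4.71% of all genes did so. Both YSG libraries lay above both SG libraries for 10 of 10 genes in each class, against 26.1% of all genes in ungated cells and 26.3% in cells of several gates. The gates are coarse, so cells of 1 gate class may still differ in maturity between libraries, and this was not tested. The level seen in non-neural cells was not subtracted from any class in these sums.

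In cycling and early cells, a larger share of cells held 5 or more of the 10 genes in YSG. Such a share rises when each gene alone is seen more often, and the share expected from the single genes was not computed. It is thus no separate sign that the genes go together. Of the few maturing cells, thinned alike, 81.0% did so in YSG males against 85.7% in SG males, and 92.9% in YSG females against 72.7% in SG females. Of cycling cells thinned to 2000 UMIs, 46.2% held 5 or more of the 10 genes in YSG males against 18.003% in SG males, and 43.9% in YSG females against 15.3% in SG females. Of early cells, 88.4% did so in YSG males against 79.7% in SG males, and 92.5% in YSG females against 77.5% in SG females. The cycling values include levels near those of the non-neural cells described above, whose part was not tested.

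The other microtubule gene lists had lower median ratios than these 10 genes. Both the lists and the 10 genes were chosen with earlier results of these data known, so nothing is concluded from this order. Beside the counts of every list here and below, 2.07% of all genes in males and 3.7% in females passed 2-fold on the higher side over all kept cells. On the lower side 2.72% and 2.83% did so. Of the 12 other tubulin genes, 9 had 5 CPM or more in at least 1 of the compared libraries, 0 passed 2-fold in either sex, and their median log2 ratio was 0.12 for males and 0.08 for females. Tubb4a, a neuronal beta tubulin, had a ratio of 1.34 in males and 1.4 in females, and Tubb2a 1.18 and 1.46. Tuba1c, an alpha tubulin of dividing cells, was lower in YSG at 0.522-fold in males and 0.558-fold in females, and Tubb4b was at 0.871-fold and 0.739-fold.

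A further list held 28 genes grouped as other neuronal microtubule regulators, although not all are specific to neurons or act on microtubules directly. Of these, 25 were measured in males and 27 in females, and their medians were 0.13 and 0.09. The genes past 2-fold were 1 in males (Gap43) and 4 in females (Gap43, Camsap3, Map6 and Tppp3), all higher in YSG. Of all genes, 2.07% in males and 3.7% in females passed 2-fold on that side. Map6 and Tppp3 were named after their values were seen. Gap43, a growth cone protein, had 440 CPM in YSG males against 218 CPM in SG males, and 592 CPM in YSG females against 233 CPM in SG females. Camsap3, which binds microtubule minus ends, was scarce, at 4.73 CPM in YSG males against 1.07 CPM in SG males, and 6.79 CPM in YSG females against 0.933 CPM in SG females. Nav1, which tracks microtubule plus ends in growing neurites, went the other way, with 336 CPM in YSG males against 545 CPM in SG males, and 317 CPM in YSG females against 551 CPM in SG females. Map7 was also lower, at 0.773-fold in males and 0.655-fold in females.

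The 8 mitotic spindle regulators had a median log2 ratio of -0.23 in males and -0.53 in females, and 0 of 8 passed 2-fold. Prc1, which bundles midzone microtubules, was at 0.74-fold in YSG males and 0.607-fold in YSG females relative to SG, and Nusap1 at 0.783-fold and 0.657-fold. Ckap2 was at 0.883-fold and 0.818-fold, and Hmmr at 1.09-fold in males and 0.754-fold in females. Within cycling cells the spindle median was 0.04 in males and 0.07 in females. Of the 11 tubulin modifying enzymes, 8 were measured in males and 7 in females, with medians of 0.05 and 0.35. Vash1, a tubulin detyrosinase, was at 2.19-fold in males, the 1 gene past 2-fold, and at 1.79-fold in females, while its partner Svbp was lower at 0.712-fold and 0.776-fold. Ttll1, of the polyglutamylases, was at 1.51-fold and 1.87-fold, and Vash2 at 0.801-fold and 0.989-fold. None of 10 kinases that act on these proteins passed 2-fold. By the mean over both sexes, the highest ratios were those of Mapk10 (1.37 and 1.89) and Mark3 (1.19 and 1.15), and the lowest those of Mark1 (0.857 and 0.898) and Mark2 (1.03 and 0.829).

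Genes whose levels over the 12 combinations of library and state were most like those of a member were ranked by Pearson r of log2 levels among 3735 candidates. Tubb3 was most like Nhlh2 (r = 0.992), Stmn3 (0.986) and Ank3 (0.984). Stmn2 was most like St18 (r = 0.988), Slc17a6 (0.987) and Nyap2 (0.984). Dcx was most like Myt1, Elavl4 and Rufy3 (r = 0.991 each), and Map2 like Dcx (0.989), Pak7 (0.988) and Myt1 (0.987). Stmn1 stood apart, being most like the ribosomal protein gene Rpl29 (r = 0.929), Sfrp1 (0.897) and the ribosomal protein gene Rps2 (0.872).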

How the data were processed

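Dissociated tumour cells of 4 libraries were captured with the 10x Genomics 3' kit V3 and sequenced on DNBseq, per the labels' protocols. Cell Ranger 5.0.1 made the matrices, per the file headers, on mm10, per the submitters' processing notes; the annotation is not given in the sources used here. The deposited values are counts of UMIs per gene and barcode, not normalized by the authors, in matrices already filtered for cells. A 3' count sees transcript ends, so isoforms were not resolved.

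UMIs of kept barcodes were summed per library and gated state and divided by all UMIs of those cells (CPM). Levels carry exact Poisson intervals, folds exact conditional binomial intervals and shares exact Clopper-Pearson intervals, at 95%. These cover counting error only and treat UMIs as independent. Called means a log2 ratio of at least 1 or at most -1. Background shares are over genes at 5 CPM or more in at least 1 compared library, unless 50 CPM is stated. No doublets were removed; an alternative left out the top 6% of cells by UMIs. Cells outside the granule lineage held 3 or more UMIs from at least 2 markers of another cell type, a rule that also took cells with granule transcripts; the non-neural cells are its leukocyte, endothelial and fibroblast classes.

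The 10 genes, the other gene lists and the gates were chosen with earlier results of these data known. All 10 members are named. Of each other list, the 2 genes highest and the 2 lowest by mean ratio over both sexes, and those past 2-fold in both, are named, and for likeness the 3 genes of highest r among those at a mean of 20 CPM or more. Gate thresholds, gate genes, scaling, cell and gene filters, thinning and a pseudocount of 1 CPM were varied. 1 marker of the oligodendrocyte list is not reported here. The scripts were tested on simulated data. Python 3.11.15, numpy 2.4.6, scipy 1.17.1, pandas 2.3.3 and matplotlib 3.10.9 were used.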

Additional observations from a re-analysis of the deposited data

Results flagged for a closer look

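In early cells, Stmn4 had opposite directions in the 2 sexes: YSG over SG was 1.31 in males and 0.925 in females. The difference between the sexes was not tested, since each sex had 1 library per genotype.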

How the results depend on the processing

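No paired analysis was possible because each group had 1 library and no replicate numbers. For the same reason no library could be left out. Of 840 values of single genes under the alternatives, 657 moved by less than their counting interval, 183 moved further and 0 changed from a called ratio to the opposite sign. Over all kept cells, the 20 ratios of the members kept their sign when cells were thinned to 2000 UMIs, with medians of 0.446 in males and 0.612 in females, and as means of per-cell shares, with medians of 0.436 and 0.576. In cycling cells, the 20 ratios kept their sign and the 8 past 2-fold stayed past it at a gate of 10 or more UMIs and in cells with 0 UMIs of the early and maturing gate genes, both chosen after seeing the data. Under the other gate alternatives, 51 to 60 of the 60 ratios within states kept their sign.

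The maturing state and the shares depended most on the gates. No share of all genes stands beside the counts of genes under any alternative. With gates on Robo3 and Grin2b, the early share ratio reversed to 0.073 in males and 0.811 in females, and the maturing share ratio was 1.22 and 2.01. The maturing median in females was then 0.0299, the fixed-mix median in males 0.47, and 2 genes passed 2-fold in cycling cells of females. Genes higher in each later state numbered 5 in YSG males, 7 in SG males and 8 in SG females. The early state then held only 8 cells in YSG males against 117 in SG males, and 99 in YSG females against 130 in SG females. With gates on Cntn2 and Kcna1, the early median in females was 0.282, 3 genes passed 2-fold in maturing cells of females, and the maturing share ratio was 7.77 there. With gates at 3 or more UMIs, the maturing median in females was -0.0242, the maturing share ratio in males 1.53, and 5 genes were higher in each later state in SG males and 5 in SG females. With gates at 2 or more UMIs, the cycling share ratio in females was 0.682. With cells of several gates assigned to 1 state, the cycling median in males was 0.664, the maturing median in females 0.0246 and the fixed-mix median in females 0.516. Then 2 genes passed 2-fold in cycling cells of females, 5, 8, 6 and 8 were higher in each later state in YSG males, SG males, YSG females and SG females, and the maturing share ratio was 1.31 in males and 3.24 in females. With gates on thinned cells, 2 genes passed 2-fold in cycling and 1 in maturing cells of females, and 4 were higher in each later state in YSG males and 4 in YSG females. The fixed-mix medians were then 0.461 in males and 0.58 in females, and the maturing share ratios 1.67 and 3.32.

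Without cells outside the granule lineage, 2 genes passed 2-fold over all cells of females, 6 and 5 were higher in each later state in SG males and SG females, the fixed-mix median in females was 0.579 and the cycling share ratio in females 0.587. Median-of-ratios scaling gave an early median of 0.386 in females. With no filter on low genes, 2 genes of the list of other neuronal regulators passed 2-fold in males. The cause of these changes was not tested. The scarce maturing cells and the few non-neural cells limit the depth of both comparisons.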
